A study of Saccharomyces cerevisiae with 61 samples.

Results

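Top2 recovery was compared between wild-type (WT) budding yeast cultures 3 h after and at (0 h) the transfer into sporulation medium, the starvation medium that starts meiosis. The comparison rests on 12 of the 61 samples of the series, which are the input and Top2 ChIP libraries of 3 cultures at 3 h and 3 cultures at 0 h. They were chosen by their labels, out of 28 libraries with a spike-in whose reads were counted by chromosome. All 6 cultures were of the SK1 background, carried no mutation or tag named in the titles, and sporulated at 30 °C. Crosslinked meiotic cells of a second strain, S288c, were mixed into every culture at 20% before immunoprecipitation. SK1 is a strain that enters meiosis efficiently and in near synchrony, and S288c is the laboratory strain of the reference genome.

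Topoisomerase II, encoded by TOP2, cuts both strands of one DNA duplex, passes another duplex through the gap and reseals it. By this reaction it removes supercoils ahead of replication forks and polymerases, and it unlinks sister chromatids after replication. Budding yeast cells in meiosis copy their genome once, in premeiotic S phase, before programmed DNA breaks are made and homologous chromosomes pair. A spike-in of foreign cells gives a common yardstick. Reads that carry a sequence difference are assigned to SK1 or S288c, and the SK1 to S288c ratio of a ChIP divided by that of its own input gives the amount of SK1 DNA recovered with Top2 per unit of SK1 DNA present. That quotient is called Top2 recovery here. The SK1 to S288c ratio of an input alone follows the SK1 DNA present per added S288c genome, so it would also rise when the SK1 cells replicate.

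Each flow cell held 1 culture of each time. Replicate 1 was read on flow cell C, replicate 2 on B and replicate 3 on D, the letters being names given here. The 12 libraries held 1229741 to 4862244 assigned reads, of which 229466 to 1372634 were S288c reads, and the smallest count of any chromosome was 4098. All counts on flow cell C were even numbers, which the sources used here do not explain. Were each molecule counted as 2 reads there, its depth would be overstated and its counting errors understated. Halving these counts leaves every ratio as it was, so it could change the calls only through counting error. It left 16 chromosomes called for recovery and 15 for the input ratio, as before. For recovery and input ratio relative to the genome it left 0 called, also as before. Replicates of 1 time always differed by more than sampling noise (12 pairs, smallest chi-square 412 with 31 degrees of freedom). All 4 libraries numbered 3 carry the strain tag of the spo11 mutant, and the 2 of them titled 0 h carry a 3 h treatment tag. The titles were followed, and results are also given without these 2 cultures where that matters. The series text calls replicates biological without saying how they were grown apart, so p-values measure only the spread between these samples, which may be partly technical.

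SK1 DNA was nearly doubled relative to the added S288c DNA at 3 h. The input SK1 to S288c ratio of replicates 1, 2 and 3 was 4.29, 4.10 and 4.34 at 3 h, against 2.56, 2.02 and 2.19 at 0 h. Every 3 h culture lay above every 0 h culture. Over all chromosomes the 3 h cultures were closer to each other than the 0 h cultures were. Without chromosome XII, described below, this order turned, with an SD of 0.257 at 3 h and 0.204 at 0 h. On the log2 scale it held without XII, with an SD of 0.079 at 3 h and 0.121 at 0 h. Over all chromosomes the mean was 4.24 ± 0.123 at 3 h and 2.26 ± 0.280 at 0 h (SD, n = 3 each). This was a 1.89-fold difference or 0.92 on the log2 scale. Exchanging cultures between the times in a two-sided exact permutation test returned p = 0.1, which is the floor for 3 against 3 cultures. Within flow cells the ratio was 1.67-fold higher at 3 h on C, 2.03-fold on B and 1.98-fold on D. The S288c reads correspondingly made up 18.7% to 19.6% of the inputs at 3 h and 28.1% to 33.1% at 0 h. More SK1 DNA per cell and more SK1 cells per added S288c cell cannot be told apart in such a ratio.

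The Top2 ChIP libraries changed by more than their inputs. Their SK1 to S288c ratio was 5.48, 6.23 and 5.19 at 3 h, against 2.54, 1.86 and 2.31 at 0 h, a 2.53-fold difference. Dividing by the inputs left a Top2 recovery of 1.28, 1.52 and 1.197 in replicates 1, 2 and 3 at 3 h, against 0.992, 0.924 and 1.05 at 0 h. Each 3 h culture thus yielded more SK1 DNA per input than S288c DNA, while the 0 h cultures yielded nearly equal amounts. Recovery averaged 1.33 ± 0.167 at 3 h and 0.990 ± 0.065 at 0 h (SD, n = 3 each), which is 1.34-fold higher or 0.42 on the log2 scale, with no overlap between the times. The log2 gap between the times was 0.72 on flow cell B, 0.36 on C and 0.18 on D (SD of the 3 gaps 0.27). The exact permutation test (two-sided) returned p = 0.1, again its floor. Without both cultures numbered 3 the log2 difference was 0.54. The standard error from read counting alone was at most 0.0046 in any culture, which covers counting only, so depth did not limit these values.

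**Figure D1:**
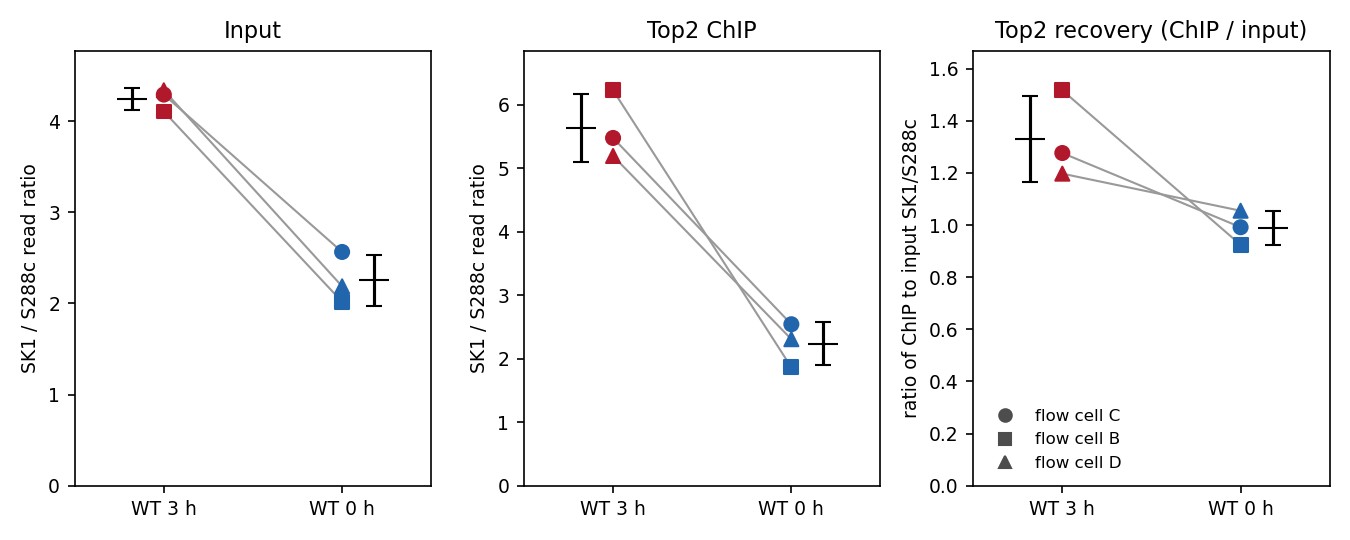
SK1 to S288c read ratio of the inputs (left), of the Top2 ChIP libraries (middle) and their quotient, Top2 recovery (right), for WT cultures at 3 h and 0 h. Points are cultures, shaped by flow cell and joined within it, and bars are means ± SD (n = 3); in each panel the 3 h cultures lie above the 0 h cultures, with inputs of 4.10 to 4.34 at 3 h and 2.02 to 2.56 at 0 h.

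The near-doubling of the input ratio was shared by 15 of the 16 chromosomes. Of 16 chromosomes tested, 15 (93.8%) were called higher at 3 h by edgeR's quasi-likelihood test with Benjamini-Hochberg adjustment (adjusted p from 0.000752 to 0.000805), and none lower. The same 15 (93.8%) had no overlap between the times. Their differences lay in a narrow band. The lowest was 1.89-fold on chromosome IX (log2 0.92 ± 0.095 SE) and the highest 1.98-fold on chromosome I (log2 0.98 ± 0.11 SE), the shortest chromosome. The next to lowest was chromosome X at 0.93 and the next to highest chromosome VIII at 0.98 on the log2 scale. On chromosome I the input ratio was 4.13, 4.27 and 4.68 at 3 h, against 2.47, 2.00 and 2.14 at 0 h. On chromosome IX it was 4.40, 4.52 and 4.80 at 3 h, against 2.71, 2.20 and 2.36 at 0 h. Both chromosomes show the same picture as the genome, with the smallest gap between the times on flow cell C.

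The band also held within each flow cell. Over the 15 chromosomes other than XII the ratio was 1.69-fold higher at 3 h on flow cell C, 2.103-fold on B and 2.07-fold on D. Around these levels the chromosomes spread with an SD of 0.022 on C, 0.023 on B and 0.033 on D (log2). The gap between flow cell C and the others thus exceeded the differences among chromosomes. Since all chromosomes of a culture share 1 mixture of cells, their calls are not independent of each other.

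**Figure D2:**
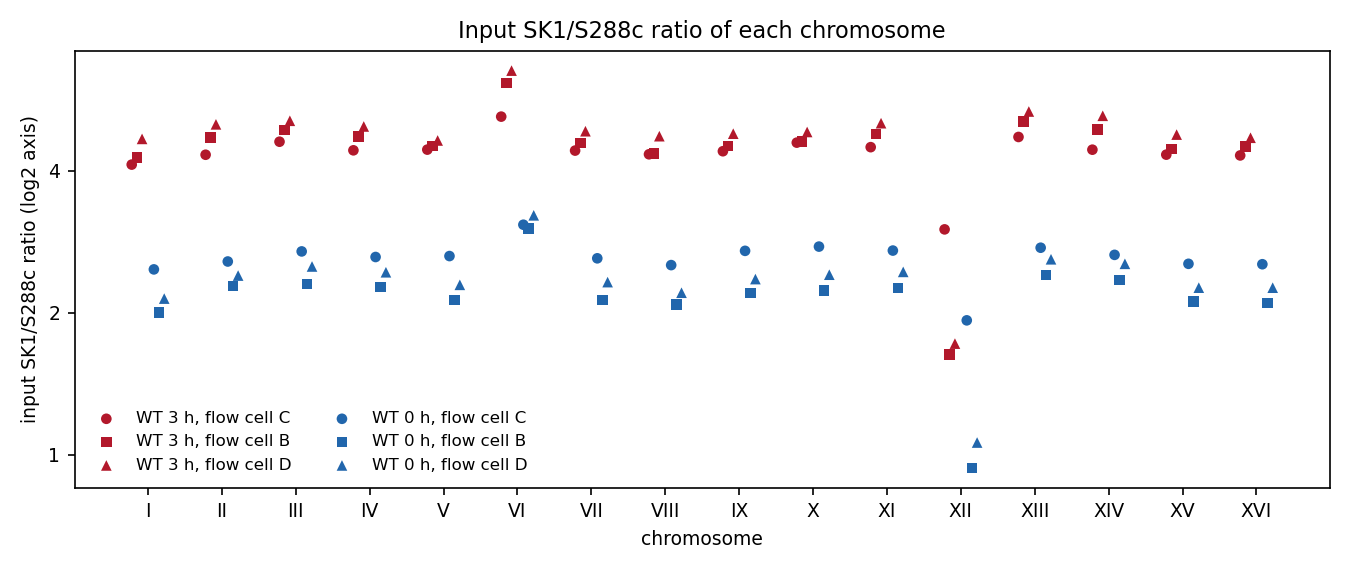
Input SK1 to S288c ratio (log2 axis) of each of the 16 chromosomes, for WT cultures at 3 h (red, left of each pair) and 0 h (blue, right), with marker shape giving the flow cell. On 15 chromosomes all 3 h cultures lie above all 0 h cultures, while on XII the 3 h cultures of B and D (1.63 and 1.72) lie below the 0 h culture of C (1.93).

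Chromosome XII, which carries the ribosomal DNA (rDNA) repeats, stood apart. Its input ratio was 3.01, 1.63 and 1.72 in replicates 1, 2 and 3 at 3 h, against 1.93, 0.937 and 1.06 at 0 h. It was higher at 3 h within each flow cell but overlapped between the times, and flow cell C read high at both. Its log2 difference was 0.71 ± 0.43 (SE), which did not pass the test (edgeR adjusted p = 0.174). It was 0.43 without replicate 1 at 3 h and 1.03 without replicate 1 at 0 h, both on flow cell C. With replicate numbers, and so flow cells, as a block, the difference was again 0.71 and passed (edgeR adjusted p = 0.0149). Relative to the other chromosomes, XII at 3 h was lower than at 0 h by a log2 value of -0.35 on flow cell D, -0.27 on B and -0.11 on C.

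The S288c reads, and not the SK1 reads, set chromosome XII apart. It held 11.2%, 19.3% and 19.4% of the S288c input reads in replicates 1, 2 and 3 at 3 h, against 10.5%, 16.6% and 15.95% at 0 h. Its share of SK1 input reads stayed between 7.65% and 7.87% at 3 h and between 7.69% and 7.93% at 0 h. The exact (Clopper-Pearson) 95% intervals were no wider than ± 0.17 percentage points for S288c and ± 0.057 for SK1, from counting alone. The S288c share was thus higher at 3 h in 3 of 3 flow cells, and lower on flow cell C than on B and D at both times. Tested without a block, the S288c input share of XII had a log2 difference of 0.26 (adjusted p = 0.993 by edgeR), and with the block 0.23 (adjusted p = 3.77e-06 by edgeR). The unblocked value ran from 0.055 without replicate 1 at 0 h to 0.50 without replicate 1 at 3 h, both on flow cell C. Scaling every chromosome to the S288c reads outside XII gave a log2 difference of 0.95 for the SK1 reads of XII, within the range of the other 15 chromosomes. How rDNA reads were shared between the genomes was not tested.

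**Figure D3:**
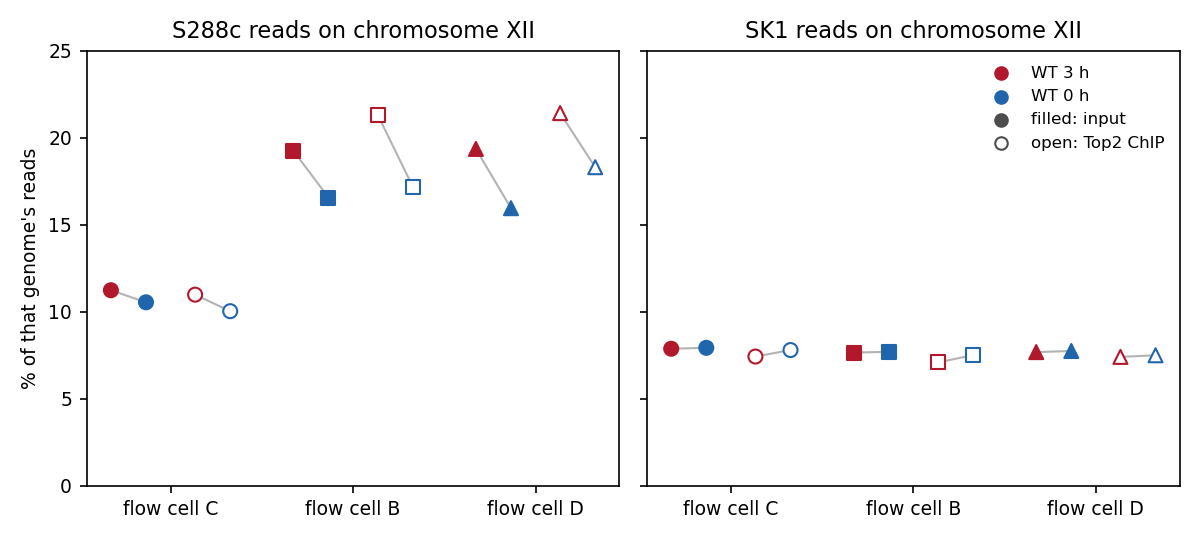
Percentage of S288c reads (left panel) and of SK1 reads (right panel) that fell on chromosome XII, for each flow cell with the 3 h culture (red) left of the 0 h culture (blue); filled markers are inputs and open markers Top2 ChIP libraries. The S288c share ran from 11.2% to 19.4% in inputs at 3 h and from 10.5% to 16.6% at 0 h, while the SK1 share stayed below 8% throughout.

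Chromosome VI, named after its values were seen, also differed between flow cells, here by similar amounts at both times. Its ratio was 5.22, 6.14 and 6.53 in replicates 1, 2 and 3 at 3 h, against 3.08, 3.02 and 3.22 at 0 h, the highest of the 16 chromosomes in 6 of 6 cultures. Relative to the other chromosomes, it was 1.17-fold above the genome on flow cell C at 3 h and 1.17-fold at 0 h. On flow cell B it was 1.31-fold above at 3 h and 1.35-fold at 0 h, and on D 1.31-fold at 3 h and 1.34-fold at 0 h. Unlike on XII, the flow cells differed here in the SK1 reads, and by less in the S288c reads. Among input reads outside XII, its log2 share of SK1 was -4.94 on flow cell C at both times, against -4.66 to -4.61 on B and D. For S288c it was -5.17 on C at 3 h and -5.16 at 0 h, against -5.05 to -5.04 on B and D. Chromosome VI took 3.01% of SK1 input reads on flow cell C at 3 h and 3.01% at 0 h, against shares of 3.65% to 3.78% on B and D. Relative to the genome its log2 difference between 3 h and 0 h averaged -0.023, with -0.047 on flow cell B, -0.029 on D and 0.0070 on C.

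Set against the genome, no chromosome's input ratio changed detectably more or less than the rest without the block. In edgeR's quasi-likelihood test of the input ratio relative to the genome, 0 of 16 chromosomes (0%) passed an adjusted p of 0.05, and 0 had an unadjusted p under 0.05. DESeq2 and limma called 0 as well. With the replicate block 1 was called, chromosome XII, which was lower at 3 h (log2 difference -0.24, adjusted p = 0.00286 by edgeR). This p also rests in part on the spread of the other chromosomes, since the test moderated it across chromosomes. Chromosome I differed by 0.026 ± 0.025 (SE), the highest of all, and XII by -0.25 ± 0.36 without the block.

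Top2 recovery was higher at 3 h on every chromosome. By edgeR's quasi-likelihood test 16 of 16 chromosomes (100%) were called, all higher (adjusted p from 0.0369 to 0.0425), and 16 of 16 (100%) had no overlap between the times. The log2 difference was highest on chromosome III at 0.48 ± 0.11 (SE) and next on XVI at 0.46 ± 0.13. It was lowest on XII at 0.35 ± 0.12, then on VIII at 0.37 ± 0.13, and chromosome I had 0.45 ± 0.12. The calls do not count as 16 separate results, because all chromosomes of a culture carry that culture's genome ratio. With the replicate block 0 of 16 were called (edgeR adjusted p from 0.149) and 0 had an unadjusted p under 0.05. Leaving out both cultures numbered 3 also left 0 calls, as did leaving out replicate 1 at 3 h or any 1 of the 0 h cultures. Without replicate 2 at 3 h, 13 were called.

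Flow cell B gave the highest recovery of the 3 h cultures on 16 of 16 chromosomes and the lowest of the 0 h cultures on 16 of 16. On chromosome III, recovery was 1.26, 1.53 and 1.25 in replicates 1, 2 and 3 at 3 h, against 0.971, 0.901 and 1.02 at 0 h. On chromosome XVI it was 1.28, 1.59 and 1.24 at 3 h, against 0.970, 0.932 and 1.08 at 0 h. On both chromosomes the 2 cultures of flow cell D were the closest to each other. On chromosome VIII recovery was 1.21, 1.51 and 1.17 at 3 h, against 0.981, 0.939 and 1.06 at 0 h. On XII it was 1.23, 1.27 and 1.04 at 3 h, against 1.02, 0.868 and 0.890 at 0 h. Recovery on XII at 3 h was nearly the same on flow cells B and C, and its S288c reads carry the flow cell difference given above. On chromosome I it was 1.27, 1.52 and 1.18 at 3 h, against 0.963, 0.896 and 1.03 at 0 h, close to the genome in each culture.

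**Figure D4:**
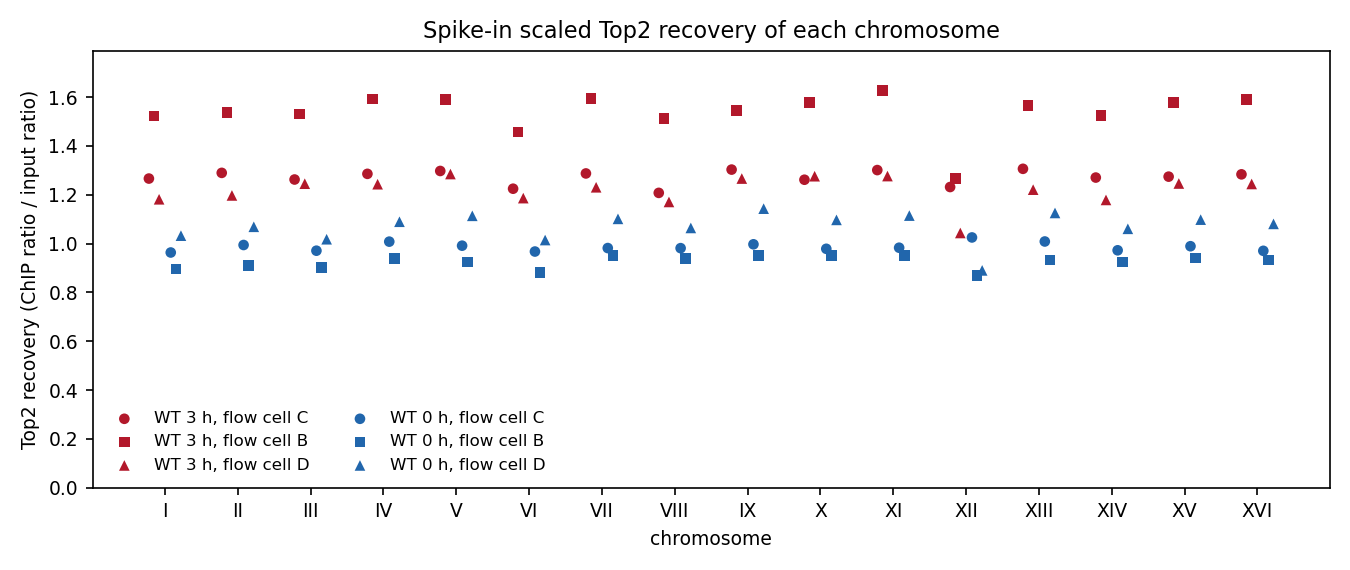
Top2 recovery (SK1 to S288c ratio of the ChIP divided by that of the input) of each chromosome, for WT cultures at 3 h (red, left of each pair) and 0 h (blue, right), with marker shape giving the flow cell. On all 16 chromosomes the 3 h cultures lie above the 0 h cultures, and flow cell B is highest at 3 h and lowest at 0 h on each.

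The gain differed between chromosomes by far less than between flow cells. Once the value shared by all chromosomes of a culture was taken out, the differences of the 15 chromosomes other than XII lay between -0.059 (VIII) and 0.044 (III), with an SD over chromosomes of 0.025 (log2). Their 95% intervals in the fit reached no lower than -0.097 and no higher than 0.098. In edgeR's quasi-likelihood test of recovery relative to the genome 0 of 16 chromosomes (0%) passed, and 1 had an unadjusted p under 0.05. With the replicate block 0 passed and 5 had an unadjusted p under 0.05, namely I, V, VIII, XI and XVI (edgeR adjusted p from 0.0638). DESeq2 and limma called 0 too. Within flow cells, 5 of 16 chromosomes (I, III, V, XI and XVI) were higher at 3 h in 3 of 3 and 1 of 16, VIII, was lower in 3 of 3. Several of these differences were no larger than the counting error of a single chromosome's recovery (SE 0.0060 to 0.035, log2). The highest difference was on chromosome III, 0.041 ± 0.024 (SE, edgeR adjusted p = 0.645), of which flow cell D alone gave 0.11 and flow cells C and B gave 0.0054 and 0.016. The lowest was on XII, -0.088 ± 0.098 (SE, edgeR adjusted p = 0.715), with -0.11 on C, -0.20 on B and 0.050 on D. It ran from -0.18 without replicate 3 at 0 h to -0.0027 without replicate 1 at 0 h. Chromosome I differed by 0.018 ± 0.021 (SE), with 0.021, 0.018 and 0.015 on C, B and D.

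Only 2 of 16 chromosomes (12.5%), VIII and XVI, had relative recoveries that did not overlap between the times, and both were named after their values were seen. On chromosome VIII the log2 recovery relative to the genome was -0.083, -0.051 and -0.074 in replicates 1, 2 and 3 at 3 h, against -0.0090, 0.0097 and -0.033 at 0 h. All 3 cultures at 3 h were lower (-0.042 on flow cell D, -0.061 on B, -0.074 on C). The test gave -0.060 ± 0.015 (SE, edgeR adjusted p = 0.112), and with the replicate block an adjusted p of 0.0638, so it was not called either way. Of this value, the SK1 share of VIII in the ChIP over the input gave -0.029 and the S288c share 0.030 in the opposite direction (log2 means). On chromosome XVI the relative recovery was 0.0049, 0.020 and 0.014 at 3 h, against -0.025, -0.00089 and -0.010 at 0 h. Its difference was 0.025 ± 0.012 (SE, edgeR adjusted p = 0.645), with 0.030, 0.021 and 0.024 on C, B and D.

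**Figure D5:**
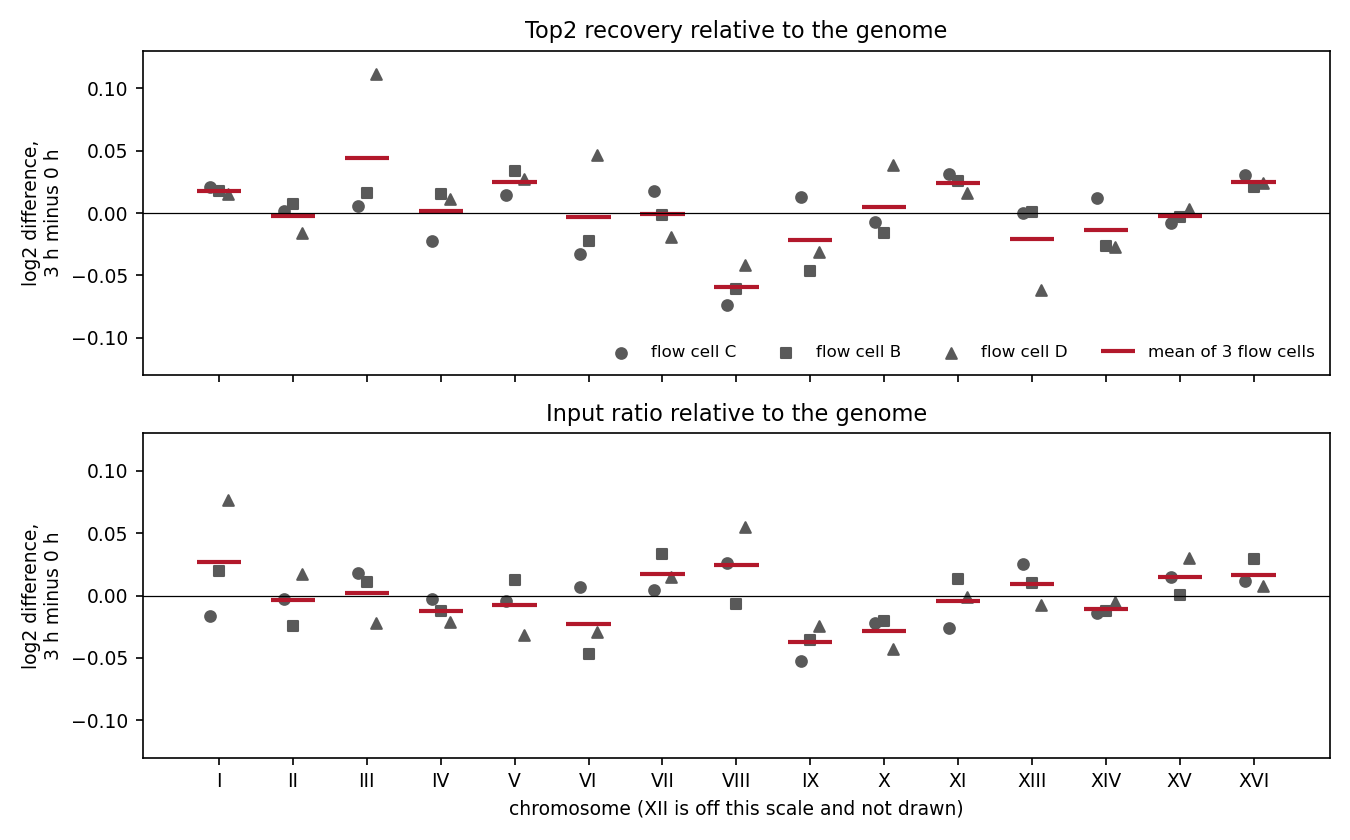
Difference between 3 h and 0 h (log2) within each flow cell (markers) and its mean (red line), relative to the genome, for 15 chromosomes: Top2 recovery above and the input ratio below. Recovery means lie between -0.059 (VIII) and 0.044 (III); 5 chromosomes (I, III, V, XI and XVI) are higher in 3 of 3 flow cells and 1 (VIII) is lower, and chromosome III is highest on flow cell D (0.11).

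The added S288c genome gave the background for these shifts. In the S288c reads, the ChIP share over the input share changed between 3 h and 0 h by -0.023 (chromosome X, lowest) to 0.036 (XII, highest) on the log2 scale, and chromosome I by 0.016 in the fit. In the edgeR test 0 of 16 chromosomes (0%) passed and 1 had an unadjusted p under 0.05. The SD over the 15 chromosomes other than XII was 0.016, against 0.023 for the SK1 reads measured the same way. For the S288c input shares 0 of 16 (0%) passed in the edgeR test, 0 with an unadjusted p under 0.05, while with the replicate block 1 passed, chromosome XII, as given above. Without the block chromosome I differed by -0.0077 and VIII, the lowest measured mean, by -0.018.

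Using the SK1 reads alone, with no spike-in, removed the S288c part. The share of SK1 ChIP reads on XII over its share of input reads then fell by 0.052 (log2), and XII was the 1 chromosome called of 16 (adjusted p = 0.0169 by edgeR). Within flow cells the value was -0.081 on B, -0.066 on C and -0.0069 on D, so flow cell D contributed little. Chromosome IX had a similar mean, -0.044 against -0.051 on XII, and was lower in 3 of 3 flow cells but not called. In this measure 5 of 16 chromosomes (31.25%) had no overlap between the times. This setting was run neither with the block nor with cultures left out.

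The share of SK1 reads by chromosome in the Top2 ChIP, taken over that in the input, had a similar pattern at both times. SK1 chromosomes V, VII, XV and XVI took a larger share of ChIP than of input reads in 6 of 6 cultures, and VI, VIII, X, XII and XIV a smaller share in 6 of 6. The size was modest. The mean log2 value over the cultures was highest on V at 0.048 and lowest on VIII at -0.069. Chromosome V averaged 0.053 ± 0.010 at 3 h and 0.043 ± 0.043 at 0 h, and chromosome VIII -0.084 ± 0.012 at 3 h and -0.055 ± 0.028 at 0 h (log2, SD, n = 3 each). Across the 16 chromosomes the mean pattern at 3 h and that at 0 h had Pearson's r = 0.84 and Spearman's rho = 0.83, as a description of 16 points that share libraries. The added S288c reads had r = 0.90 and rho = 0.87 between the times, so the likeness was not particular to the SK1 reads. The S288c reads held 4 chromosomes above in 6 of 6 cultures, V, VI, XV and XVI, and 3 below, IX, X and XIV. Across the 16 chromosomes the SK1 and S288c patterns had r = 0.060 at 3 h and r = 0.18 at 0 h, and without XII r = 0.59 at 3 h and r = 0.43 at 0 h.

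A Top2 peak list made by the authors from 2 combined WT samples at 3 h, without spike-in, gave another view of the chromosomes. Its peaks covered between 15.1% (VI) and 18.8% (V) of the chromosome up to its last peak. These were also the lowest and the highest coverage of all, on chromosomes that took less and more than their share of SK1 ChIP reads in every culture. Other chromosomes did not follow this order. XIV, with 18.1%, also took less than its share of SK1 ChIP reads in every culture. VIII, with the lowest mean SK1 ChIP share over the input share, had 17.0%. In the S288c reads VI took more than its share in 6 of 6 cultures. Chromosome III had 15.7% and XII 16.4%. Across the 16 chromosomes coverage and the mean SK1 ChIP share over the input share had r = 0.44 at 3 h and r = 0.57 at 0 h, given as a description. Without chromosomes I, III and VI the order of the times turned, with r = 0.56 at 3 h and r = 0.39 at 0 h.

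The slope of recovery on chromosome size was lower at 3 h, and this depended on which chromosomes were included. Each chromosome's mean percentage of the SK1 input reads stood for its size, from 1.73% for I to 12.9% for IV. This stand-in is uncertain for VI, which had 3.48%, with SK1 shares that differed between flow cells as given above. Its share of S288c input reads was lower, 2.44% to 2.47% at 3 h and 2.51% to 2.55% at 0 h. The slope of log2 recovery on log10 size was 0.036, 0.042 and -3.8e-06 in replicates 1, 2 and 3 at 3 h, against 0.060, 0.067 and 0.065 at 0 h. The 3 h slopes were all lower, by a mean of -0.038 (two-sided exact permutation p = 0.1, the smallest possible). Without replicate 3 at 3 h the difference was -0.0253, and without both cultures numbered 3 it was -0.0250 (exact permutation p = 0.333). The SK1 share alone gave -0.029 (exact permutation p = 0.6). Without the 3 short chromosomes I, III and VI the difference turned to 0.022 (exact permutation p = 0.7), and without XII it was -0.023 (exact permutation p = 0.5). The slope of the input ratio differed by -0.042 (exact permutation p = 0.5), and without XII by 0.0019.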

How the data were processed

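For each spike-in library the authors deposited raw counts of reads on every SK1 and S288c chromosome, with no normalization; the aligner of these counts, its filters and the mark PM in their names are not given in the sources used here. The Top2 peak list holds the authors' fold enrichment (a ratio) and −log10 q-value per peak, deposited for 2 combined WT 3 h cultures; MACS2 2.1.1 is named in the submitters' processing notes. Cultures were grouped by title, and flow cells read from the deposited names. Ratios were computed over 16 nuclear chromosomes; relative values used the totals of the 15 other than XII. Genome values and slopes were compared by exact permutation, chromosomes with edgeR 4.0.16 (R 4.3.3; glmQLFit, dispersion floor 0.0001, SK1 and S288c counts as separate columns, 1 term per library), with no replicate block, adjusted over 16 chromosomes at 0.05. For recovery and input ratios by chromosome each chromosome kept its own spread; otherwise the spread was moderated. The fits were tested on simulated data. Same-numbered cultures at 3 h and 0 h shared a flow cell, so a block was an alternative. Others were DESeq2 1.42.0, limma 3.58.1, other scalings and left-out cultures. The deviations of same-numbered cultures had r = 0.48, 0.55 and 0.12 for relative recovery, and 0.94, 0.80 and 0.66 for relative input ratios. For input ratios, replicate 2 at 3 h had r = 0.93 with replicate 3 at 0 h. Replicate 3 at 3 h had r = 0.80 with replicate 2 at 0 h. The input correlations thus set replicate 1 apart but do not pair 2 with 2 or 3 with 3. Chromosomes I and XII, the highest and lowest difference of each test, and called chromosomes (the 2 highest and 2 lowest where more than 4) were named. Members, lists and rules were chosen with earlier results of these data known.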

Additional observations from a re-analysis of the deposited data

How the results depend on the processing

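The genome-wide differences in recovery and input ratio stayed positive under every alternative run. With 1 culture left out, the log2 difference ran from 0.32 to 0.49 for recovery and from 0.84 to 1.01 for the input ratio; without the input correction the ChIP ratio differed by 1.34. With 1 culture left out, between 0 and 16 chromosomes were called for recovery by chromosome, and 0 with both cultures numbered 3 left out or with the replicate block; the block is the alternative that keeps the pairing by flow cell. For recovery relative to the genome the SK1 share alone called 1. For the relative input ratio and for the S288c input share the replicate block called 1 each, chromosome XII. With the block, the sign-flip test of 3 pairs gave p = 0.25 for both genome-wide values, the smallest exact permutation value possible. For the input ratio by chromosome the block also called XII, as did moderated spread, the S288c total as scale and limma. In that test the block changed no other call. The recovery slope on size turned positive without I, III and VI (0.022) and, added after seeing the data, without XII, I, III and VI (0.043). The input slope turned positive without XII (0.0019) and, added after seeing the data, without XII, I, III and VI (0.052); with 1 culture left out it ran from -0.11 to 0.0021, the latter value without replicate 1 at 0 h. Among named chromosomes with no call, signs turned as follows. With 1 culture left out, the relative input ratio of XII ran from -0.57 to 0.0055, the S288c ChIP share from -0.015 to 0.041 for I and from -0.042 to 0.12 for XII, and the S288c input share from -0.094 to 0.073 for I and from -0.041 to 0.0086 for VIII. With both cultures numbered 3 left out, chromosome I turned to -0.0034 for the S288c ChIP share and to 0.019 for the S288c input share. The cause of these turns was not tested. Leaving XII out of the relative and S288c fits was also added after seeing the data and called 0. Size from a reference genome was not run. Counting error (SE, log2) was at most 0.0046 for genome-wide recovery, well under the spread between cultures. For a single chromosome's recovery it ran from 0.0060 to 0.035, about as large as the median SD of relative recovery between cultures (0.023 at 3 h and 0.022 at 0 h), so depth limits those values too.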

Other observations

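The 8 other spike-in cultures, all at 3 h, had input SK1 to S288c ratios between 2.48 and 4.46. The ratios were 3.51 and 4.46 in the spo11 cultures, 2.94 and 3.605 in the rec8 cultures, 2.48 and 2.65 in the top2-1 cultures at 34 °C, and 3.03 and 3.08 in the WT cultures at 34 °C. Differences between these groups were not tested here.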
